A study of Homo sapiens with 5 samples.

Results

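Expression after knockdown of AURKA by either of 2 siRNAs was set against both control treatments in GFP-SAS, a squamous cell carcinoma line of human tongue labelled with green fluorescent protein. Cells received 10 nM siAURKA-1, 10 nM siAURKA-2, a non-targeting siRNA (siNT) or DMSO, and RNA was taken at 24 h. These make 4 of the 5 arrays of the series, chosen by treatment label alone. The other array holds MLN8237, an inhibitor of the Aurora A kinase, at 100 nM. The labels allow more than 1 reading of the siNT dose, and DMSO cells were not transfected, so the control arrays differ from each other by transfection. Each treatment has 1 array and 1 RNA, with no replicate, so the pair of arrays on each side holds different treatments. The Affymetrix arrays gave a value for 18239 genes, taken as log2 signal. Every probe set had been centred on its median over the 5 arrays, so values compare arrays and carry no expression level. The presence of squamous markers such as keratins therefore could not be checked.

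Aurora A is a serine/threonine kinase that accumulates in G2 and mitosis, where it drives centrosome maturation, mitotic entry and assembly of a bipolar spindle. It is activated by TPX2 on spindle microtubules and by BORA before mitosis, and it phosphorylates the kinase PLK1. DNA replication genes, which appear below, are transcribed mainly at the transition from G1 into S phase, many of them under E2F transcription factors, while most mitotic genes peak later, in G2 and mitosis. In bulk RNA, fewer cells in a phase of the cycle and less RNA per cell cannot be told apart.

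AURKA itself, on chromosome 20 and read by 1 probe set, had the lowest mean difference of all genes. It stood at -3.36 with siAURKA-1 and -2.64 with siAURKA-2, against 0.00 with siNT and 0.15 with DMSO. The mean difference of -3.08 (limma standard error 0.31) corresponds to an 8.44-fold lower signal. The siRNAs differed by -0.72 (siAURKA-1 minus siAURKA-2) and the controls by -0.15 (siNT minus DMSO), whereas the nearest values of the sides lay -2.64 apart. On the MLN8237 array, which was not part of this comparison, AURKA stood at 0.64.

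Beyond the target, few genes separated the knockdown arrays from the controls by a wide margin. A gene was termed apart when both siAURKA values lay beyond both control values. This held for 3050 genes with knockdown higher (16.7% of the genes measured) and 2285 with knockdown lower (12.5%). A mean difference of at least 2-fold was also reached by 28 of the higher genes (0.154%) and 45 of the lower ones (0.247%). Requiring each siRNA to be at least 2-fold beyond each control left 4 higher genes (0.0219%) and 8 lower genes (0.0439%). The 4 were ST6GALNAC2, IFNE, ANKRD22 and GULP1, and the 8 were AURKA, DTL, BCAT1, SNORD17, MEST, FABP5, APLN and MIR17HG.

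Set against the spread within each side, no gene passed the test. A limma fit over all genes gave 0 genes at a Benjamini-Hochberg adjusted p under 0.05 (0% of those tested), with a smallest adjusted p of 0.537. At an unadjusted limma p under 0.05 it gave 1232 genes (6.75%). AURKA had a limma adjusted p of 0.554. That spread mixes any difference between the siRNAs, or between transfected and untransfected controls, with variation between arrays. These cannot be told apart, since no treatment was repeated. An exact permutation test of 2 arrays against 2 cannot go below a two-sided p of 0.333. All genes below are therefore described by their values, and none is reported as a tested change. The counts at 2-fold changed when an array was left out. They were 78 higher and 100 lower without siAURKA-1, 99 and 200 without siAURKA-2, 60 and 56 without siNT, and 42 and 86 without DMSO. Fewer values must then lie in order, so genes that are apart stay apart and others join them. All 73 genes kept their sign with any array left out, which being apart guarantees. Both criteria were still met by 19 to 25 of the 28 and 23 to 36 of the 45.

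**Figure D1:**
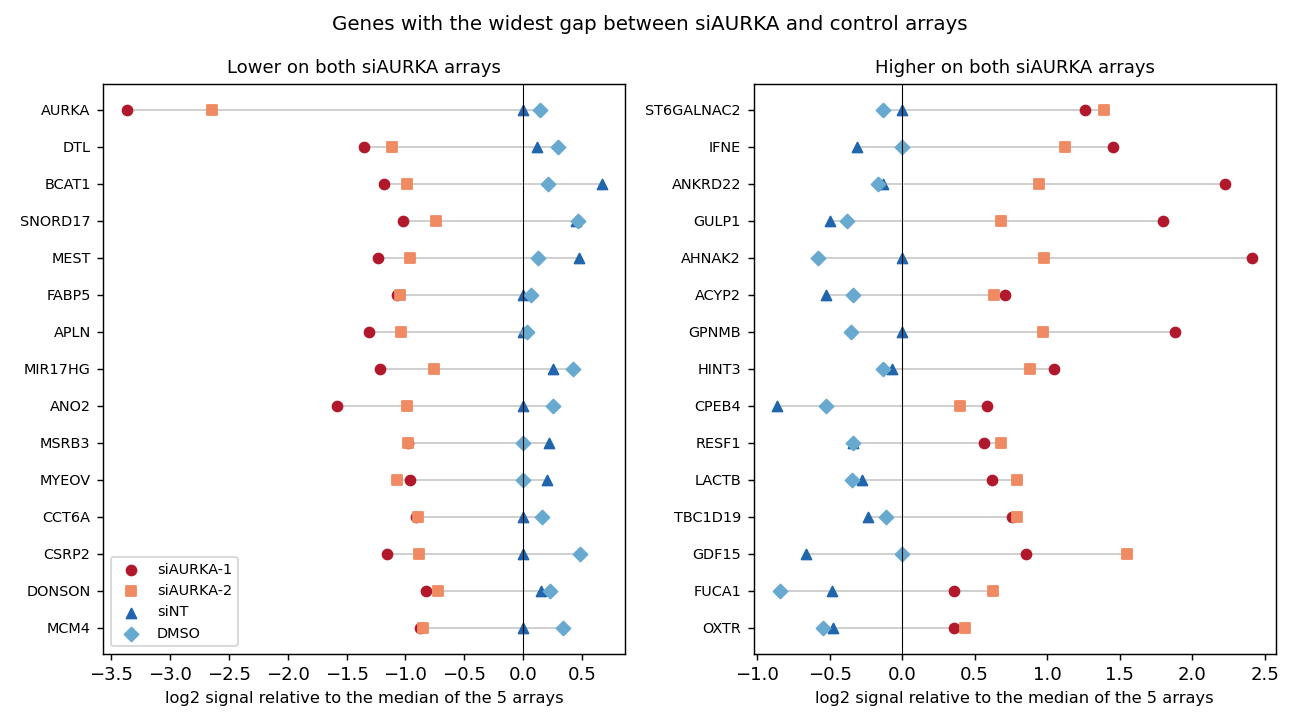
The 15 genes with the widest gap between siAURKA and control arrays in each direction, with genes lower on the siAURKA arrays on the left and higher on the right. The horizontal axis is log2 signal relative to the median of the 5 arrays, and each point is 1 array. AURKA lies furthest out at -3.36 and -2.64 on the siAURKA arrays, while the siAURKA-1 points of ANKRD22, GULP1, AHNAK2 and GPNMB extend well past those of siAURKA-2.

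The genes at least 2-fold below both controls with each siRNA included BCAT1, FABP5, APLN, MIR17HG, MEST and SNORD17. BCAT1, the cytosolic aminotransferase of branched-chain amino acids, stood at -1.19 and -0.99 on the siAURKA-1 and siAURKA-2 arrays, against 0.67 with siNT and 0.21 with DMSO, a mean difference of -1.53. FABP5, a fatty acid carrier of epidermal cells, showed the closest match within sides, at -1.07 and -1.05 with the siRNAs against 0.00 with siNT and 0.06 with DMSO. Its limma standard error was 0.036 on a mean difference of -1.09. Neither gene had any overlap between the sides. APLN, encoding the secreted peptide apelin, gave -1.31 and -1.03 on the siAURKA arrays against 0.00 with siNT and 0.03 with DMSO. MIR17HG, the host transcript of a cluster of microRNAs that favour proliferation, gave -1.22 and -0.75 against 0.25 with siNT and 0.42 with DMSO, and its mean difference was -1.33. MEST, an imprinted gene, and the small nucleolar RNA gene SNORD17 had mean differences of -1.40 and -1.34. In all of these the control arrays lay closer to each other than to either knockdown array.

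Other lower genes with wide gaps were ANO2, a calcium-activated chloride channel gene (mean difference -1.41), CSRP2, a LIM-domain protein gene (-1.26), MYEOV (-1.12) and MSRB3, a methionine sulfoxide reductase gene (-1.09). MSRB3 stood at -0.98 on both siAURKA arrays, against 0.22 with siNT and 0.00 with DMSO. DUT, the enzyme that removes dUTP before it can enter DNA, was at -0.74 and -1.37 with the siRNAs against 0.06 with siNT and 0.43 with DMSO. THBS1, encoding the matrix glycoprotein thrombospondin-1, was at -1.13 and -0.77 against 0.38 with siNT and 0.00 with DMSO, and 4 of its 5 probe sets shared that direction. DUT was lower with siAURKA-2 and THBS1 with siAURKA-1, so the order of the siRNAs was not fixed. Over all 45 lower genes, siAURKA-1 was the lower of the siRNAs in 34 and siAURKA-2 in 11.

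DNA replication genes were the group that most often lay below both controls. Of 44 measured members, 38 were apart with knockdown lower (86.4%, against 12.5% of all genes) and 0 were apart with knockdown higher. Their median difference was -0.65, against 0.01 over all genes. Of the members, 9 were apart and at least 2-fold lower, as were 0.247% of all genes. None passed limma after adjustment, and 17 had an unadjusted limma p under 0.05.

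Genes of the helicase that opens DNA ahead of the fork were apart and lower, with the exception of MCM5. MCM4, a subunit of the MCM2 to MCM7 ring, stood at -0.87 and -0.85 with the siRNAs, against 0.00 with siNT and 0.34 with DMSO (mean difference -1.03). MCM2 stood at -0.82 and -0.81 against 0.00 and 0.40 in the same order of controls (-1.01). For both genes the siRNA arrays nearly coincided and the DMSO array lay above siNT. MCM7 followed at a mean difference of -0.97, MCM3 at -0.70 and MCM6 at -0.67. In MCM5 the siAURKA-2 and siNT values were both 0.00. CDC45, which joins the ring to make the active helicase, was at -1.22 and -0.51 with the siRNAs, against 0.04 with siNT and 0.39 with DMSO. GINS2 and GINS3, subunits of its GINS partner, had mean differences of -1.07 and -1.05, and GINS1 had -0.52.

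Factors that license and fire origins lay on the same side. CDC6, a loader of the helicase, stood at -0.89 and -0.68 on the siAURKA arrays, against 0.00 with siNT and 0.33 with DMSO. CDT1, the other loader, had a mean difference of -0.57, and ORC1 and ORC6 of the origin recognition complex had -0.83 and -0.57. MCM10, needed for helicase activation, was at -1.36 and -0.56 against 0.03 with siNT and 0.43 with DMSO. DTL, the CUL4 ligase receptor that marks CDT1 and p21 for destruction on chromatin, gave the largest difference of the list. It stood at -1.35 and -1.11 with the siRNAs, against 0.12 with siNT and 0.30 with DMSO, and its limma standard error was 0.13 on a mean difference of -1.44. Each siRNA thus put DTL at least 2-fold below each control.

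Among DNA synthesis and nucleotide genes, the distance between the siRNAs varied from gene to gene. PRIM1, the catalytic primase subunit, stood at -0.96 and -0.50 with the siRNAs against 0.23 with siNT and 0.51 with DMSO. POLE2, a subunit of polymerase epsilon, stood at -1.60 and -0.25 against 0.06 with siNT and 0.55 with DMSO, so most of its mean difference of -1.23 came from siAURKA-1. RRM2, the regulated subunit of ribonucleotide reductase, was at -0.79 and -0.76 against 0.05 with siNT and 0.22 with DMSO. TK1, thymidine kinase, had a mean difference of -0.76. TYMS, thymidylate synthase, was not apart: it stood at -1.24 with siAURKA-1 but 0.00 with siAURKA-2, against -0.06 with siNT and 0.37 with DMSO. PCNA, the sliding clamp, had a smaller mean difference of -0.44 and was apart. LIG1, UNG, RPA2 and RFC4 were the other members that were not apart.

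**Figure D2:**
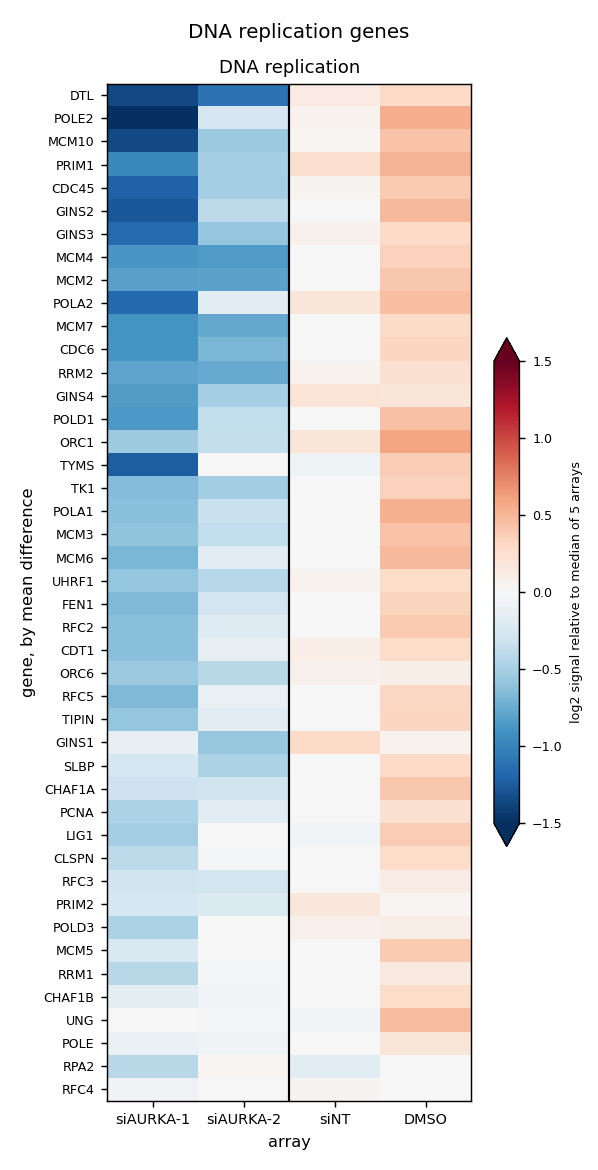
Values of the 44 DNA replication genes (rows, ordered by mean difference) on the siAURKA-1, siAURKA-2, siNT and DMSO arrays (columns), coloured by log2 signal relative to the median of the 5 arrays. Both siAURKA columns are blue for most genes, siAURKA-1 more deeply, and the DMSO column is redder than the siNT column.

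The size of the replication difference depended on the array pair. The list's median was -0.64 for siAURKA-1 minus siNT and -0.34 for siAURKA-2 minus siNT. It was larger against DMSO, at -1.0001 for siAURKA-1 and -0.64 for siAURKA-2. The siNT array itself lay below DMSO, with a median of -0.31 for siNT minus DMSO. Transfection and the siRNA sequence cannot be told apart in that difference. Leaving out 1 array at a time gave medians from -0.82 without siAURKA-2 to -0.48 without DMSO. In these settings 38 to 43 of the 44 genes were apart and lower, as were 4364 to 5150 of all 18239 genes. A gene that is apart stays apart with 1 array left out, so the list's count could not fall below 38. On the MLN8237 array the median level of the list was 0.03, against 0.00 with siNT and 0.32 with DMSO.

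Promoters of replication genes are shown because many carry letters that E2F factors can bind. The letters searched were TTTCCCGC, TTTCGCGC, TTTGCCGC and TTTGGCGC on both strands, in the window from 250 bases before to 50 after each gene's start (RefSeq, GRCh38.p14). A matching promoter was given for 39 of the 44 genes, and 20 of these (51.3%) held at least 1 match. Over all measured genes with a promoter the share was 4.54% (658 of 14492), and over all 27305 promoters it was 3.33%. The promoters below belong to DTL (chr1:212035498-212035797, plus strand), MCM2 (chr3:127598161-127598460, plus strand), MCM7 (chr7:100101348-100101647, minus strand) and CDC6 (chr17:40287629-40287928, plus strand). Each is written 5′ to 3′ along its gene with the matches in capitals, and the pair of matches in MCM2 overlap.
DTL: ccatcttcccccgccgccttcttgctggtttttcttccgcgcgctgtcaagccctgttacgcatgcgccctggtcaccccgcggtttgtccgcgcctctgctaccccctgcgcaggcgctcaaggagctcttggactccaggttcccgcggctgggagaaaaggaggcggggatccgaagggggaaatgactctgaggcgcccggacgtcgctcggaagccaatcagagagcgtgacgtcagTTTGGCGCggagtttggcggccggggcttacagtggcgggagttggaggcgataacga
MCM2: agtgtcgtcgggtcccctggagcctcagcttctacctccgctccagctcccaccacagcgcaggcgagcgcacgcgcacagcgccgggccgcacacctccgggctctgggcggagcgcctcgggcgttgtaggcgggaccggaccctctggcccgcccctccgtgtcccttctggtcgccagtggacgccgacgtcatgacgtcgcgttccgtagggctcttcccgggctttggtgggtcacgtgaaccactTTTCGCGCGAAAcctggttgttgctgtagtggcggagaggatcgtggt
MCM7: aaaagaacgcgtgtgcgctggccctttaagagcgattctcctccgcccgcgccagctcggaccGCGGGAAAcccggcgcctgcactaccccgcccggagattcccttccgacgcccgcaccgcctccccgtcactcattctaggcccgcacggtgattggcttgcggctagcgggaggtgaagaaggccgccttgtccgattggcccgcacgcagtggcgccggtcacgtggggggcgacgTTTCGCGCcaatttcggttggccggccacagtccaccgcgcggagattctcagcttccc
CDC6: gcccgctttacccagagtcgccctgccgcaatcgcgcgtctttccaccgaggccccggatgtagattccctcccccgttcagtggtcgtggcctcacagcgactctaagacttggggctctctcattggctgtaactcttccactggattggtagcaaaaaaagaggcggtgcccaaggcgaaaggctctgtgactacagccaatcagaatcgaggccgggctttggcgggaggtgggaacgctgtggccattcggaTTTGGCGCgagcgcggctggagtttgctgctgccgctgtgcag

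A match did not separate the replication genes from one another. Of the 20 with a match, 18 were apart and lower, with a median difference of -0.73, and of the 19 without, 17 were, with a median of -0.57. Outside the list, 134 of the 638 genes with a match were apart and lower, against 1709 of the 13815 without one (12.4%). Among genes at least 2-fold different, 6 of the 34 lower genes with a promoter held a match (17.6%), and 0 of the 21 higher genes did. Of the 6, 5 were members of the DNA replication list. With that list left out, 1 lower gene held a match and 25 did not. These counts describe letters in a window and do not show binding.

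Genes of homologous recombination and the Fanconi pathway, which repair stalled or broken forks, also lay low. Of 25 measured, 16 were apart and lower (64.0%, against 12.5% of all genes) and 1 was apart and higher. Their median difference was -0.38. CHEK1, the kinase that responds to replication stress, stood at -0.94 and -0.53 with the siRNAs, against 0.17 with siNT and 0.19 with DMSO. FANCI, part of the monoubiquitinated clamp at crosslinks, stood at -0.85 and -0.43 against 0.11 with siNT and 0.27 with DMSO. For both genes the controls were close together and above both siRNAs. RAD54L, a motor protein of strand exchange, and the nuclease EXO1 each had a mean difference of -0.69. ATM and CHEK2, the kinases at the head of the break response, had mean differences of 0.00 and -0.02 and were not apart. No member of this list reached 2-fold.

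The E2F and G1/S regulators were mixed. Of 31 measured, 11 were apart and lower (35.5%, against 12.5% of all genes) and 4 apart and higher (12.9%, against 16.7%). The median difference of -0.17 was -0.06 without siAURKA-1. CKS1B, a binding partner of cyclin-dependent kinases, stood at -0.57 and -0.70 with the siRNAs against 0.10 with siNT and 0.13 with DMSO. CDK2, the kinase of S phase, stood at -0.73 and -0.36 against 0.06 with siNT and 0.24 with DMSO. E2F8 and E2F1 had mean differences of -0.76 and -0.63, and CDC25A, an activator of CDK2, had -0.63. CDKN1A and CDKN2B, which encode CDK inhibitors, lay on the higher side and are described with the higher genes. CCND1, encoding cyclin D1, was not apart, at 0.12 and -0.79 with the siRNAs against 0.41 with siNT and -0.01 with DMSO.

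Mitotic genes, among them the partners of Aurora A, separated much less from the controls. Of 39 measured G2/M genes, 7 were apart and lower (17.9%, against 12.5% of all genes) and 1 was apart and higher. Their median difference was -0.19, but it was 0.01 without siAURKA-1 and -0.42 without siAURKA-2. CDK1 stood at -0.83 with siAURKA-1 and 0.01 with siAURKA-2, against 0.01 with siNT and 0.00 with DMSO. TOP2A, which untangles sister chromatids, stood at -1.30 and 0.12 against 0.06 with siNT and -0.01 with DMSO. MKI67, the proliferation marker, followed the same pattern at -0.71 and 0.01 against -0.02 and 0.02. In the gene values of all of these the siAURKA-1 array alone lay low. The 3 CDK1 probe sets disagreed, and 2 shared the direction of the gene value. In the probe set with the lowest difference, both siRNAs lay below both controls, at -0.85 and -0.25 against 0.01 with siNT and 0.09 with DMSO. MELK and PBK, a pair of mitotic kinases, were the members at least 2-fold lower with the sides apart. MELK stood at -1.13 and -0.62 against 0.15 with siNT and 0.15 with DMSO, and PBK at -0.49 and -1.62 against 0.00 and 0.04.

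Of 15 measured Aurora cofactors and related kinases, 4 were apart and lower (26.7%, against 12.5% of all genes) and 1 apart and higher (6.67%, against 16.7%). Their median difference of -0.07 was -0.016 without siAURKA-1 and -0.04 without siAURKA-2. AURKB, the kinase of the chromosomal passenger complex, stood at -0.92 and -0.36 with the siRNAs against 0.03 with siNT and 0.07 with DMSO (mean difference -0.69). AJUBA, a LIM protein that activates Aurora A, stood at -0.70 and -0.51 against 0.03 with siNT and 0.16 with DMSO. TPX2 was not apart, at -0.40 and 0.05 against -0.01 with siNT and 0.00 with DMSO, and BORA was not apart either, with a mean difference of -0.04. PLK1 stood at -0.04 and -0.10 against 0.00 on both control arrays, and 2 of its 3 probe sets shared the direction of the median. Condensin genes, a list added after values were seen, held NCAPD3 at -0.82 and -1.09 with the siRNAs against 0.00 with siNT and 0.12 with DMSO. SMC2, their shared core subunit, had a mean difference of -0.95. Of the 8 measured, 4 were apart and lower (50%, against 12.5% of all genes). Their median of -0.29 was -0.10 without siAURKA-1 and -0.50 without siAURKA-2.

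Genes of ribosome assembly and protein folding were lower by modest amounts. Of 33 measured ribosome biogenesis genes, 22 were apart and lower (66.7%, against 12.5% of all genes) and 0 higher. Their median difference of -0.27 was -0.16 without siAURKA-2. UTP20, of the small subunit processome, stood at -0.92 and -0.61 with the siRNAs against 0.24 with siNT and 0.00 with DMSO. DDX21, a nucleolar RNA helicase, stood at -0.47 and -0.48 against 0.00 with siNT and 0.04 with DMSO. Both lay clear of the controls, whereas the median member differed by far less. Ribosomal protein genes gave no such pattern: 9 of 29 were apart and higher (31.0%, against 16.7% of all genes) and 1 was apart and lower. Their median difference was 0.02, and it ranged from 0.0019 without siAURKA-1 to 0.05 without siAURKA-2. The exception was RPS14, at -0.56 and -0.49 against 0.03 with siNT and 0.12 with DMSO, with 2 of its 3 probe sets in that direction.

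Heat shock and chaperone genes had 12 of 19 members apart and lower (63.2%, against 12.5% of all genes) and 0 higher. Their median of -0.24 was -0.07 without siAURKA-2 and -0.15 without DMSO. HSP90AA1, the inducible cytosolic HSP90, stood at -0.46 and -0.49 on the siAURKA arrays against 0.00 with siNT and 0.16 with DMSO. CHORDC1, an HSP90 cochaperone, had a mean difference of -0.60. CCT6A, a subunit of the CCT chaperonin that folds tubulin and actin, stood at -0.91 and -0.89 against 0.00 with siNT and 0.16 with DMSO. The other CCT subunits, a list added after values were seen, had mean differences between -0.20 and 0.00, so CCT6A stood alone in size among its 8 measured members. Tubulin genes, whose products CCT folds, had 8 of 18 members apart and lower (44.4%, against 12.5% of all genes) and 3 higher (16.7%, the share among all genes). TUBA4A stood at -0.75 and -0.88 against 0.29 with siNT and 0.00 with DMSO, and TUBB at -0.96 and -0.53 against 0.00 and 0.10. The tubulin median of -0.24 was -0.11 without siAURKA-1 and -0.53 without siAURKA-2.

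Genes of amino acid supply and tRNA charging also lay low, by medians that rested on single arrays. Of 25 measured genes of the integrated stress response, 9 were apart and lower (36.0%, against 12.5% of all genes) and 1 higher. Their median of -0.31 was 0.00 without siAURKA-1 and -0.03 without siNT. PSAT1, an enzyme of serine synthesis, stood at -1.28 and -0.26 with the siRNAs against 0.33 with siNT and 0.42 with DMSO. MTHFD2, of mitochondrial folate metabolism, stood at -1.03 and -0.39 against 0.24 with siNT and 0.10 with DMSO. ATF4, the transcription factor of this response, had a mean difference of -0.69. Aminoacyl-tRNA synthetase genes, whose products charge tRNAs, had 10 of 19 members apart and lower (52.6%, against 12.5% of all genes) and 1 higher. Their median of -0.26 was -0.08 without siAURKA-1. YARS1 stood at -0.59 and -0.22 against 0.02 with siNT and 0.16 with DMSO, while WARS1 was not apart, at -1.14 and 0.27 against 0.00 with siNT and 0.24 with DMSO.

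**Figure D3:**
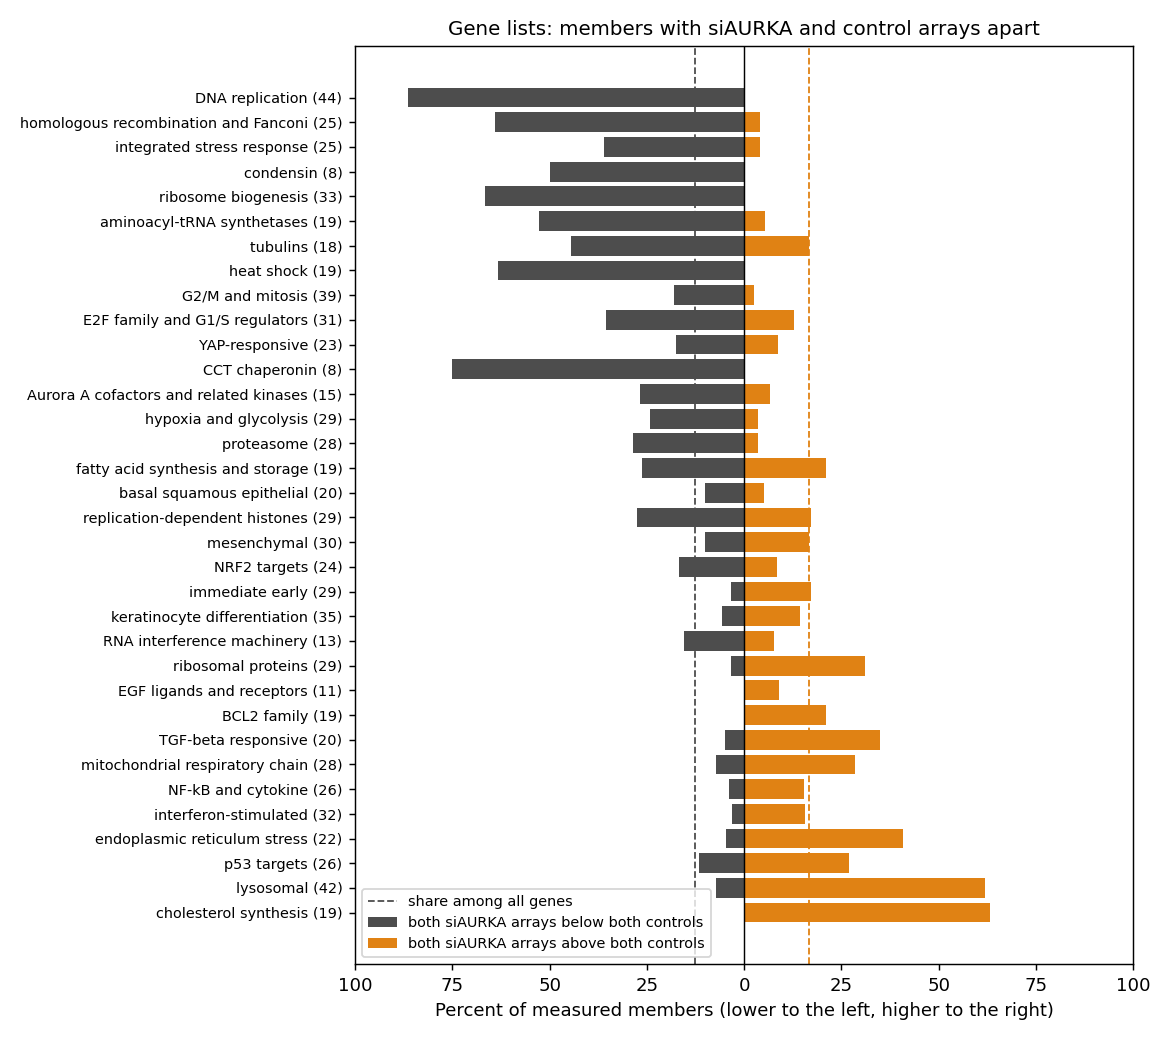
Share of the measured members of each gene list (number in parentheses) that had both siAURKA arrays below both controls (dark bars, to the left) or above both (orange bars, to the right), in percent, with lists ordered by median difference. Dashed lines mark the shares among all genes, 12.5% lower and 16.7% higher, and the DNA replication bar reaches 86.4% while cholesterol synthesis and lysosomal genes reach 63.2% and 61.9% on the higher side.

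The genes highest on both siAURKA arrays came from varied families. ST6GALNAC2, a sialyltransferase of O-linked glycans, stood at 1.26 with siAURKA-1 and 1.39 with siAURKA-2, against 0.00 with siNT and -0.13 with DMSO. Its limma standard error was 0.079 on a mean difference of 1.39, and the sides lay further apart than for any other higher gene. IFNE, encoding the epithelial interferon epsilon, stood at 1.45 and 1.12 against -0.31 with siNT and 0.00 with DMSO. The 32 measured interferon-stimulated genes did not follow in number: 5 were apart and higher (15.6%, against 16.7% of all genes) and 1 lower. IFIT2, the member with the largest difference, stood at 0.14 and 1.42 against 0.00 with siNT and -0.10 with DMSO.

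Several other higher genes were far higher with siAURKA-1. ANKRD22 stood at 2.22 and 0.94 with the siRNAs, against -0.13 with siNT and -0.16 with DMSO. GULP1, an adaptor for engulfment of dying cells, stood at 1.80 and 0.68 against -0.49 with siNT and -0.38 with DMSO. AHNAK2, a giant scaffold protein gene, had the largest mean difference, 1.99, from 2.41 and 0.98 against 0.00 with siNT and -0.58 with DMSO. In these genes the siRNAs differed from each other by more than 2-fold, yet both exceeded both controls. HINT3, LACTB and ACYP2 showed the opposite, with siRNA values close together and mean differences of 1.06, 1.02 and 1.11. LACTB, a mitochondrial serine protease gene, stood at 0.62 and 0.79 against -0.28 with siNT and -0.34 with DMSO. CPEB4, which regulates translation through poly(A) tails, stood at 0.58 and 0.40 against -0.86 with siNT and -0.52 with DMSO. CYP1B1, a cytochrome P450, stood at 0.81 and 1.78 against 0.00 on both control arrays, and 4 of its 5 probe sets shared the direction. Such equal values were common: 3680 of the 18239 genes had identical values on both knockdown arrays or both control arrays.

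The higher genes included CDKN1A and CDKN2B, which encode inhibitors of cyclin-dependent kinases. CDKN1A, encoding p21, stood at 1.05 and 0.75 with the siRNAs against 0.00 with siNT and -0.45 with DMSO (mean difference 1.12). CDKN2B, encoding p15, stood at 0.58 and 1.27 against 0.00 with siNT and -0.55 with DMSO (1.19). Both genes lay above both controls, and in both siNT lay above DMSO. The other inhibitors showed less: CDKN1B and CDKN2A were not apart, with mean differences of 0.23 and 0.02. GDF15, a stress-induced cytokine and p53 target, stood at 0.86 and 1.55 against -0.66 with siNT and 0.00 with DMSO. FAS, the death receptor gene and another p53 target, stood at 0.34 and 0.16 against -0.67 with siNT and -0.15 with DMSO.

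The p53 targets did not all lie on 1 side of the controls. Of 26 measured, 7 were apart and higher (26.9%, against 16.7% of all genes) and 3 apart and lower, with a median difference of 0.13. MDM2, the feedback inhibitor of p53, stood at 0.23 and 0.00 with the siRNAs against -0.01 with siNT and -0.13 with DMSO. DDB2, a damage sensor of nucleotide excision repair, lay clearly on the lower side, at -0.71 and -0.77 against 0.00 with siNT and 0.43 with DMSO. BAX and CCNG1 were not apart, and CCNG1 stood at 0.00 with siAURKA-1 and -1.67 with siAURKA-2. Of the 19 measured BCL2 family genes, which control apoptosis, 4 were apart and higher (21.1%, near the 16.7% of all genes) and 0 lower (against 12.5%). The median difference of 0.03 was -0.0081 without siAURKA-1 and 0.01 without siNT or without DMSO.

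Cholesterol synthesis genes lay above both controls in 12 of 19 measured members (63.2%, against 16.7% of all genes), and 0 lay below. Their median difference was 0.33, and it ranged from 0.26 without DMSO to 0.49 without siNT. HMGCS1, which makes HMG-CoA at the head of the mevalonate pathway, stood at 0.34 and 0.21 with the siRNAs against -0.59 with siNT and -1.02 with DMSO. STARD4, a sterol carrier, stood at 0.27 and 0.50 against -0.29 with siNT and -0.20 with DMSO. MSMO1 and INSIG1, a methylsterol oxidase and the sterol sensor that restrains SREBP, had mean differences of 0.96 and 0.89, but their DMSO values of -0.89 and -1.11 lay far below siNT at 0.00. The siNT array lay above DMSO by a median of 0.14 over the list. SREBF2, which encodes the activating transcription factor itself, was not apart, with a mean difference of 0.10. The letters TCACNCCAC, a form of the sterol response element, occurred in 1 of 18 of these promoters (5.56%) and in 1.17% of all measured genes with a promoter.

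Lysosomal genes were a list added after values were seen and are therefore only described. Of 42 measured members, 26 were apart and higher (61.9%, against 16.7% of all genes) and 3 apart and lower. Their median difference was 0.31. GPNMB, a glycoprotein of lysosomes and melanosomes, stood at 1.88 and 0.97 with the siRNAs against 0.00 with siNT and -0.35 with DMSO. FUCA1, the lysosomal fucosidase, stood at 0.36 and 0.63 against -0.48 with siNT and -0.84 with DMSO. These were the members that reached 2-fold. NEU1, the lysosomal sialidase, stood at 0.81 and 0.51 against -0.17 with siNT and -0.25 with DMSO. SCARB2, the receptor that brings glucocerebrosidase to lysosomes, had a mean difference of 0.81, PSAP, the precursor of the saposins, had 0.72, and GLB1, the beta-galactosidase, had 0.65. LAMP2, by contrast, was apart and lower, with a mean difference of -0.17. The median of siNT minus DMSO over this list was 0.01, although single members such as GPNMB and FUCA1 were lower with DMSO. The CLEAR letters TCACGTGA, read by TFEB-family factors, occurred in 6 of 33 of these promoters (18.2%), against 1.48% of all measured genes with a promoter. Of the 6 genes with the letters 3 were apart and higher, and of the 27 without them 17 were.

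**Figure D4:**
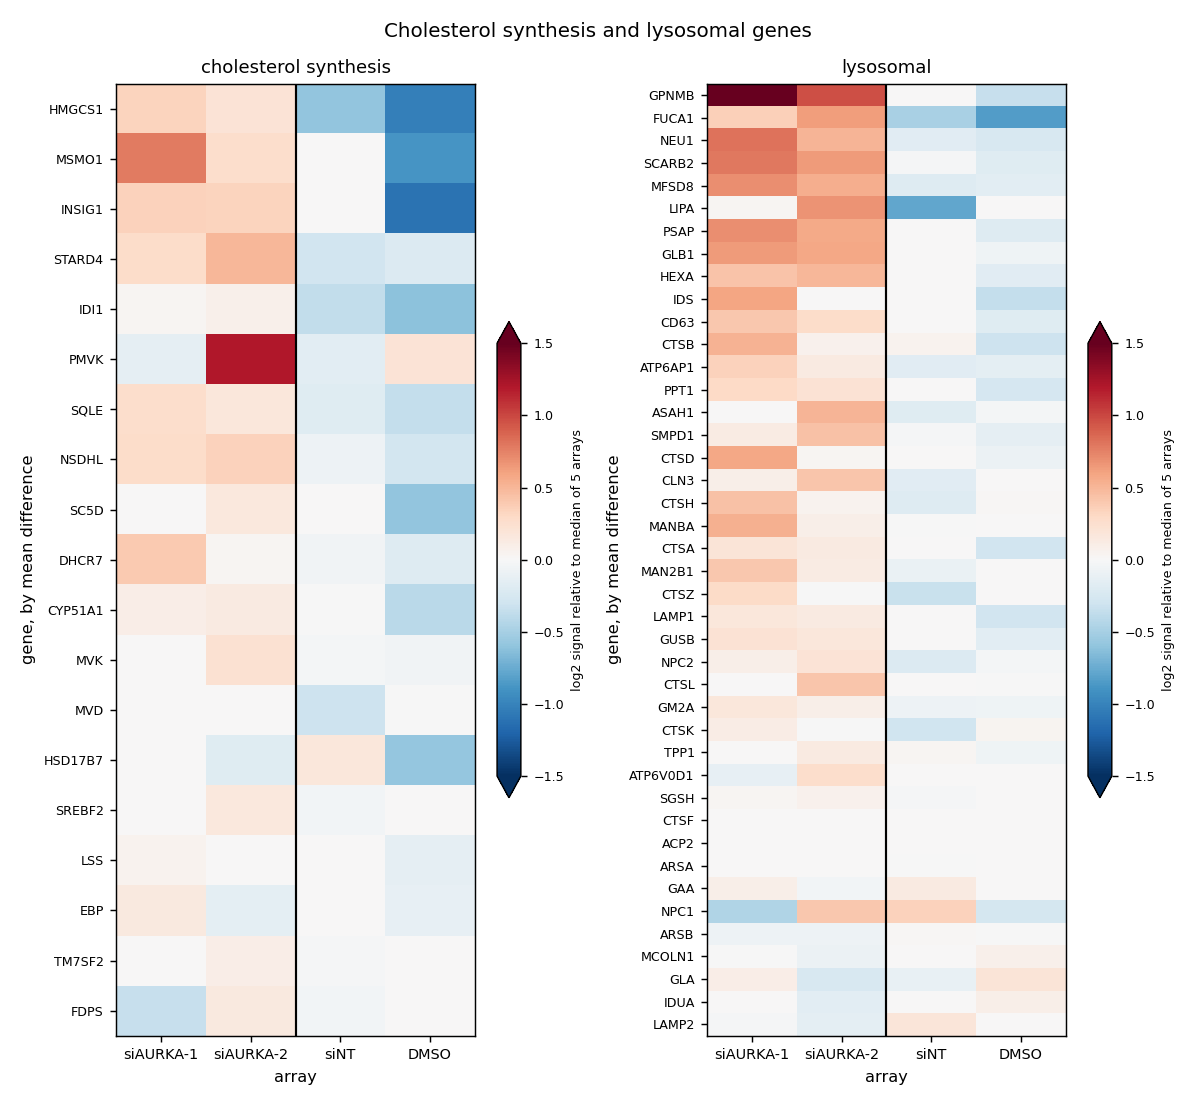
Values of the 19 cholesterol synthesis genes (left) and 42 lysosomal genes (right) on the siAURKA-1, siAURKA-2, siNT and DMSO arrays, with rows ordered by mean difference and colours giving log2 signal relative to the median of the 5 arrays. The upper rows are red on both siAURKA arrays, and the cholesterol genes HMGCS1, MSMO1 and INSIG1 are deepest blue on the DMSO array.

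Endoplasmic reticulum stress genes had 9 of 22 members apart and higher (40.9%, against 16.7% of all genes) and 1 lower. The median difference of 0.09 was 0.01 without siAURKA-1. DNAJB9, a luminal cochaperone, stood at 0.50 and 0.34 with the siRNAs against 0.00 with siNT and -0.87 with DMSO. HSPA5, the luminal chaperone BiP, stood at 0.24 and 0.62 against -0.06 with siNT and -0.18 with DMSO. TGF-beta responsive genes had 7 of 20 members apart and higher (35.0%, against 16.7% of all genes), CDKN2B among them, and 1 lower. Their median of 0.04 was 0.0097 without siAURKA-1, 0.07 without siAURKA-2, 0.10 without siNT and 0.03 without DMSO. Mitochondrial respiratory chain genes had 8 of 28 apart and higher (28.6%, against 16.7% of all genes) and 2 lower. Their median of 0.07 was 0.0038 without siAURKA-1 and 0.03 without siNT.

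Epithelial state genes showed no share above the background. Of 35 measured keratinocyte differentiation genes, 5 were apart and higher (14.3%) and 2 lower. ZNF750, a regulator of epidermal differentiation, reached a mean difference of 1.34 through siAURKA-1 alone, at 2.60 against 0.02 with siAURKA-2, 0.00 with siNT and -0.06 with DMSO. ELF3, an epithelial transcription factor, stood at 0.65 and 0.28 with the siRNAs against -0.48 with siNT and 0.00 with DMSO. Mesenchymal genes had 5 of 30 apart and higher and 3 lower, and basal squamous genes had 1 of 20 higher and 2 lower. Markers of fibroblasts (8 measured) and squamous epithelium (6) had 0 members apart, leukocyte markers had 2 of 6 apart and lower, and endothelial markers had 1 of 6 in each direction. Differences of the fibroblast, leukocyte and endothelial markers all lay between -0.09 and 0.08, while those of the squamous markers ran from -0.85 to 0.17. The squamous marker median of -0.03 depended on the siRNA, at -0.19 without siAURKA-1 and 0.12 without siAURKA-2. For the basal squamous genes these medians were -0.01 and 0.10. Levels of these markers are not in the centred values, so the presence of such cells could not be assessed.

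Several of the remaining lists had more lower genes than the 12.5% of all genes. Proteasome genes had 8 of 28 apart and lower (28.6%) and 1 higher, replication-dependent histone genes 8 of 29 lower (27.6%) and 5 higher (17.2%), and hypoxia and glycolysis genes 7 of 29 lower (24.1%) and 1 higher. The medians of these lists were no further from 0 than -0.04. Without siAURKA-2 the proteasome median was 0.03 and the hypoxia median 0.02, and without siAURKA-1 they were -0.06 and -0.10. H4C3, a histone H4 gene, stood at -0.57 and -0.54 with the siRNAs against 0.11 with siNT and 0.18 with DMSO. Fatty acid genes had 5 of 19 lower (26.3%), FABP5 among them, and 4 higher (21.1%, against 16.7% of all genes). YAP-responsive genes had 4 of 23 lower (17.4%) and 2 higher. Their median of -0.15 was -0.26 without DMSO and 0.0056 without siAURKA-1. NRF2 targets had 4 of 24 lower (16.7%) and 2 higher. NF-kB and cytokine genes had 4 of 26 higher (15.4%) and 1 lower, with a median difference of 0.08 that depended on the siRNA. Without siAURKA-1 their median was 0.49, with 19 apart and higher, beside 6280 of all 18239 genes. Without siAURKA-2 their median was -0.05, with 13 apart and lower, beside 5150 of all genes. Being apart is a looser criterion with 1 array left out, so these counts do not compare directly with the 4 and 1. Immediate early genes had 5 of 29 higher (17.2%) and 1 lower. Genes of the microRNA and RNA interference pathways had 2 of 13 lower (15.4%) and 1 higher, and EGF ligands and receptors had 1 of 11 higher and 0 lower.

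A large mean difference did not always come from both siRNAs. ANKRD1, ASNS and VIM had means at least 2-fold lower but were not apart. VIM, encoding vimentin, stood at -3.66 with siAURKA-1 and 0.00 with siAURKA-2, against 0.06 with siNT and -1.68 with DMSO. ANKRD1, a YAP-responsive gene, stood at -3.51 and 0.00 against 0.47 with siNT and -1.08 with DMSO. In both, siAURKA-2 lay between the controls. ASNS, asparagine synthetase, stood at -2.08 and 0.08 against 0.00 with siNT and 0.17 with DMSO, and it lay low on the siAURKA-1 array alone. Among genes with a raised mean, ID2, which blocks helix-loop-helix transcription factors, stood at 1.18 and -0.05 against -0.88 with siNT and 0.05 with DMSO.

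Within the genes that were apart and at least 2-fold different, the spread of the siRNAs was wider than that of the controls. The median difference between the siRNAs was 0.67 over the 28 higher genes and 0.70 over the 45 lower genes, and between the controls it was 0.31 and 0.24. The siRNAs were more than 2-fold apart in 9 of the 28 and 11 of the 45. The difference between the sides exceeded both within-side differences in 22 of the 28 and 36 of the 45. TFAM, SLC16A12, GSN and H2BC5 were examples where 1 siRNA lay near the controls: TFAM, a mitochondrial transcription factor gene, stood at -0.14 and -1.82 against 0.17 with siNT and 0.07 with DMSO. RAB40B and PRSS23 depended on the siNT array instead, and PRSS23 stood at -0.11 and -0.91 against 1.07 with siNT and 0.00 with DMSO. Of genes read by several probe sets, all probe sets were apart in the same direction in 12 of 19 higher and 22 of 25 lower genes. The 2-fold threshold fell between PIP4P2 at 1.02 and GRAMD2B at 0.97 on the higher side, and between EIF4EBP1 at -1.005 and CENPU at -0.9997 on the lower side.

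In 20 genes the siRNAs lay on opposite sides of both controls by at least 1.5-fold. CD24, DBT, DSP, EMC1, SDC4 and SSBP3 were higher with siAURKA-1 and lower with siAURKA-2, and the other 14 were the reverse. IL1A, encoding interleukin-1 alpha, stood at -2.39 with siAURKA-1 and 0.80 with siAURKA-2, against 0.09 with siNT and -0.36 with DMSO. DSP, encoding the desmosomal protein desmoplakin, stood at 0.78 and -1.19 against 0.17 with siNT and 0.00 with DMSO. The mean differences of the 20 genes lay between -0.66 for IL1A and 0.27 for SUN3, so a mean over both siRNAs describes neither array.

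**Figure D5:**
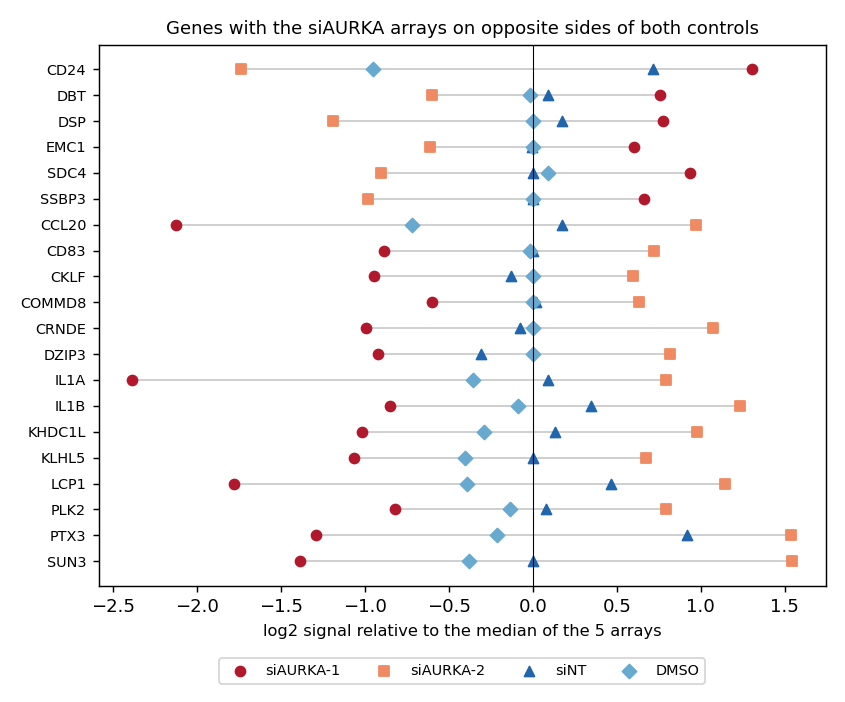
The 20 genes whose siAURKA arrays lay at least 1.5-fold beyond both controls in opposite directions, with log2 signal relative to the median of the 5 arrays on the horizontal axis and 1 point per array. CD24 to SSBP3 have siAURKA-1 on the right, and CCL20 to SUN3 have siAURKA-2 on the right.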

How the data were processed

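Total RNA of GFP-SAS cells was labelled with biotin for Affymetrix GeneAtlas arrays, per the labels' protocols. The authors' deposited values are taken as log2 signal. The submitters' processing notes name RMA (robust multi-array average), a method of background correction, quantile normalization and probe summary. Its software and version, the log base and the centring of every probe set on the median of the 5 arrays (49386 of 49386 probe sets) are all not given in the sources used. No level remains, so no filter on low signal was possible, and array number alone limits precision.

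A gene's value was the median of the probe sets naming only that gene. Of the probe sets, 45259 named 1 gene, 1327 several and 2713 none, beside 93 controls. Symbols were updated by Entrez number for 45178 probe sets through the RefSeq table, and 6416 genes had 1 probe set. Of the 49386 probe sets, 25732 stood at exactly 0 on 2 or more arrays. Such ties enter the spread within a side, and their source was not tested. Differences are the mean of siAURKA-1 and siAURKA-2 minus the mean of siNT and DMSO. The limma 3.58.1 fit (R 4.3.3, lmFit and eBayes) ran on all 18239 genes with Benjamini-Hochberg adjustment. It was also run on simulated arrays with independent normal noise and planted differences. That run concerns the code and cannot show whether the fit suits these arrays. The p-values of the fit measure the spread between different treatments, not between replicates.

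Named genes were AURKA and 11 fixed cell cycle genes, the 15 widest gaps each way, the 6 highest and 6 lowest means not apart, the 5 genes each way with the smallest spread, and up to 4 members per list. Other genes in the text were chosen after their values were seen. The 35 lists hold 863 entries, 58 of them without a measured gene. Members and lists were chosen with earlier results of these data known, and 3 further lists (lysosomal, CCT chaperonin, condensin) after values were seen, so lists have counts and medians and no test. Alternatives were the mean of probe sets, counting probe sets, centring each array, other folds and leaving out each array. Promoters were matched by symbol to RefSeq (GRCh38.p14).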

Additional observations from a re-analysis of the deposited data

Results flagged for a closer look

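The siRNAs disagreed in direction in a small set of genes. With siAURKA-1 at least 1.5-fold above and siAURKA-2 at least 1.5-fold below both controls there were 6 genes, and with siAURKA-2 above and siAURKA-1 below there were 14. Among these was SUN3, encoding a nuclear envelope protein and read by 1 probe set. It stood at -1.39 with siAURKA-1 and 1.55 with siAURKA-2, against 0.00 with siNT and -0.38 with DMSO, so that siAURKA-1 minus siAURKA-2 was -2.94. SUN3 was the only gene of the 20 in which each siRNA was at least 2-fold beyond both controls. These differences were not tested, as each siRNA has 1 array.

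The MLN8237 array lay outside the comparison. It held 1 gene at least 2-fold lower than both controls and 0 genes at least 2-fold higher. The gene was ANXA10, an annexin gene, at -1.18 with MLN8237 against 1.32 with siNT and 0.00 with DMSO, which puts it -1.18 below the nearer control. This was not tested either.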

How the results depend on the processing

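No paired analysis was possible because each treatment has 1 array and no replicate numbers link the sides. Counts of genes with both criteria met were 28 higher and 45 lower. Counting probe sets gave 117 and 173, a 1.5-fold threshold 178 and 296, a 3-fold threshold 4 and 2, and requiring each siRNA to be 2-fold beyond each control 4 and 8. Leaving out 1 array gave 42 to 99 higher and 56 to 200 lower. The criterion of being apart is looser with 1 array fewer, and its part in these counts was not tested. For genes apart at any size, probe sets gave 7150 higher and 5705 lower, and leaving out 1 array 5412 to 6567 higher and 4364 to 5150 lower. Of the 175 named genes, 37 met both criteria, and 38 to 57 did with 1 array left out. The mean of probe sets gave 23 higher and 43 lower and kept 23 of the 28 and 41 of the 45. Centring each array on its median over all genes could not change any count. That median was already 0 on every array, so this setting does not probe the normalization. AURKA ranged from -3.44 to -2.72 over the left-out arrays. Limma gave 0 genes under every one of these settings it was run with, with 1232 to 3208 at an unadjusted p under 0.05. With 1 array left on a side, limma assumes that it varies like the other side. Over left-out arrays, 18 of 140 list medians and 7 of 700 named-gene differences turned sign. Named genes that were apart could not turn sign. List medians of at least 0.20 in size numbered 8, and 6 to 8 with 1 array left out. Without expression levels, genes near background could not be told from expressed genes.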
